A study of Mus musculus with 6 samples.

Results

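Glycerolipid acylation and cardiolipin synthesis were followed through 10 genes, chosen by name for the enzymes they encode: Gpam, Agpat1, Agpat2, Lpin1, Lpin2, Cds1, Cds2, Pgs1, Crls1 and Lpcat3. The choice was made with earlier results of these data known. All 10 were found among the 18303 genes of the deposited expression table. Polyadenylated RNA had been sequenced from 6 libraries of mouse embryonic fibroblasts (strain CBA/CaJ X C57BL/6J) on day 2 of reprogramming towards pluripotency, all in iCD1, a defined medium, and all carrying a short hairpin RNA. The 2 control libraries, shLuc replicates 1 and 2, carried a hairpin against luciferase, which mouse cells do not have. Single libraries carried hairpins against the ethanolamine kinases (shEtnk1/2), against Pcyt2, which makes CDP-ethanolamine (shPcyt2), or against Pebp1, a phosphatidylethanolamine-binding protein (shPebp1). A further single library carried shLuc in medium without ethanolamine, written here as Etn-deprived. Per the design text, shEtnk1/2, shPcyt2 and Etn-deprived are 3 ways to inhibit the CDP-ethanolamine pathway.

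Glycerolipids are built by adding acyl chains to glycerol-3-phosphate. Gpam, the mitochondrial glycerol-3-phosphate acyltransferase, adds the first chain, and the lysophosphatidic acid acyltransferases Agpat1 and Agpat2 add the next, giving phosphatidic acid. From there the route forks. The lipins remove the phosphate to give diacylglycerol, which joins CDP-ethanolamine to form phosphatidylethanolamine. The CDP-diacylglycerol synthases Cds1 and Cds2 instead activate phosphatidic acid. Pgs1 and Crls1 act in mitochondria, on the way from CDP-diacylglycerol to phosphatidylglycerol and cardiolipin. The CDP-diacylglycerol synthase of mitochondria is Tamm41, given below with the neighbouring genes. Lpcat3 exchanges chains on finished phospholipids, placing polyunsaturated chains on lysophosphatidylcholine and lysophosphatidylethanolamine.

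The libraries held 18467583 to 20020465 reads in genes. The targeted transcripts checked the labels in part. Etnk1 stood at 12.5 RPKM (reads per kilobase of transcript, scaled to library size) in shEtnk1/2 against 21.0 and 21.4 in shLuc, and Pcyt2 at 29.9 in shPcyt2 against 42.0 and 40.05. Pcyt2 was also below both controls in shEtnk1/2 (35.6), Etn-deprived (33.5) and shPebp1 (38.3), thus in every treated library. Etnk2 was at 0.333 RPKM in shEtnk1/2 and at 0.457 and 1.00 in shLuc, too low to test. Pebp1 stood at 250.4 RPKM in shLuc replicate 1 and 99.6 in shPebp1. It was at 100.7 in the library labelled shLuc replicate 2, so that library goes against its label for this gene. The test used below passed Etnk1 in shEtnk1/2 (limma adjusted p 0.00401) but neither Pcyt2 in shPcyt2 (0.16) nor Pebp1 in shPebp1 (0.98). An alternative fit with limma-voom on recovered reads passed Etnk1, Pcyt2 and Pebp1 in these libraries (adjusted p 5.07e-13, 0.0161 and 3.21e-11). It also called Pebp1 higher than shLuc in shEtnk1/2, shPcyt2 and Etn-deprived (limma-voom adjusted p 4.02e-09, 4.75e-17 and 6.08e-05). As the shLuc pair stood at 250.4 and 100.7 RPKM, Pebp1 does not check the shPebp1 label or either tool. All 6 fibroblast markers were above 1 RPKM, and their summed level was 12257 RPKM in shEtnk1/2 and 8995 to 10351 in the other libraries. Of 7 adipocyte markers, chosen because fat cells are rich in Agpat2 and Lpin1, 2 were listed. Adipoq was at 0 to 0.0403 RPKM and Fabp4 at 0.309 to 4.43. Their summed level ran from 0.350 in shLuc replicate 1 to 4.43 in shPcyt2. Summed markers of macrophages (7.79 to 9.25 RPKM), endothelium (21.5 to 25.4, with Pecam1 and Cdh5 far below Tek), epithelium (9.38 to 15.7), skeletal muscle (0.705 to 1.72) and liver (11.4 to 17.5) were low beside the fibroblast genes.

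The genes of each step were expressed at unequal levels. Agpat1 and Lpcat3 were the most abundant, with means over the 6 libraries of 37.0 and 37.1 RPKM. Pgs1 followed at 20.5, Crls1 at 13.7, Lpin2 at 11.1, Cds2 at 10.5, Agpat2 at 7.97, Gpam at 7.39 and Lpin1 at 4.72. Cds1 was last at 0.871 RPKM. RPKM is a level per transcript length, so these values can be set side by side. Across libraries the range of Lpcat3 lay clear of that of Pgs1, that of Pgs1 clear of Crls1, that of Gpam clear of Lpin1 and that of Lpin1 clear of Cds1. The other neighbours in this order (Lpcat3 and Agpat1, Crls1 and Lpin2, Lpin2 and Cds2, Cds2 and Agpat2, Agpat2 and Gpam) overlapped in their ranges. Lpcat3 was above 88.8% of the genes in the table and Cds1 above 33.8%. The test used below was run on the 11939 genes that averaged 1 RPKM or more, which 9 of the 10 genes passed. Cds1 did not.

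Among the 10 genes the isoenzyme pairs Cds1 with Cds2 and Agpat1 with Agpat2 differ most in level, and Crls1 had the widest range of the tested genes in the branch to cardiolipin, so the 250 bases upstream of these 5 start sites are shown. They are RefSeq promoters of build GRCm38.p6, 5′ to 3′ on the gene's strand. Capitals mark the letters of 4 searched motifs on either strand: the CCAAT box (CCAAT or ATTGG), the GC box (GGGCGG or CCGCCC), the E-box CACGTG and the TATA letters TATAAA (or TTTATA). Overlapping matches run together.
Cds1, chr5:101764880-101765129, plus strand: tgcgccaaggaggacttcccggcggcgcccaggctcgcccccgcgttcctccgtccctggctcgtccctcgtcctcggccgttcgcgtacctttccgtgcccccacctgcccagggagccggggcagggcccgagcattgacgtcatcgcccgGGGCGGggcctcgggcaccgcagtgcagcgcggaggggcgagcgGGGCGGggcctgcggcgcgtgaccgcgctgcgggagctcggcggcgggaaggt
Cds2, chr2:132262898-132263147, plus strand: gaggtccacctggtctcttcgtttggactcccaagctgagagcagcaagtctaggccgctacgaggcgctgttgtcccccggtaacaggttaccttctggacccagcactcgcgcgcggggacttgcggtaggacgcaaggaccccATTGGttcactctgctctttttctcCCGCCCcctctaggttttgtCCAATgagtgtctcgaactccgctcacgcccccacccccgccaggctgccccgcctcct
Agpat1, chr17:34605611-34605860, plus strand: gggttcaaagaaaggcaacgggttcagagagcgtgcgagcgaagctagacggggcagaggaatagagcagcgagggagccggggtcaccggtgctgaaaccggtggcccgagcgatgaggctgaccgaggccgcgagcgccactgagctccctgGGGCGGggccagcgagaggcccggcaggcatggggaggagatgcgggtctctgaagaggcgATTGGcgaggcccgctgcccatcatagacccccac
Agpat2, chr2:26604418-26604667, minus strand: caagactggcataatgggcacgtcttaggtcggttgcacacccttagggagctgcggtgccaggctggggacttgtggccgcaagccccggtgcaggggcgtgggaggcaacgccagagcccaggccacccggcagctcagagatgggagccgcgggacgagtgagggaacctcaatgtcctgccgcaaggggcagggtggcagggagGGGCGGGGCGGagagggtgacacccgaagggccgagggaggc
Crls1, chr2:132846416-132846665, plus strand: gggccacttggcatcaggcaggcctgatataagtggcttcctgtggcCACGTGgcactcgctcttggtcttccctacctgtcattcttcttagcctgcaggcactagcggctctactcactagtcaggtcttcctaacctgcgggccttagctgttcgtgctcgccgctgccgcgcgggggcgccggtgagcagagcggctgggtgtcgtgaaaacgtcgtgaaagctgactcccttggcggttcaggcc

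The window of Cds1, the gene with the lowest level, was 77.6% G and C, held 2 GC boxes and no CCAAT box. The window of Cds2 was 62.4% G and C and held 2 CCAAT boxes and 1 GC box. Agpat1 had 1 of each, and Agpat2 had 2 overlapping GC boxes and no CCAAT box. Among all 10 genes, 8 windows held a GC box and 3 a CCAAT box (Agpat1, Cds2 and Lpcat3), against 32.7% and 33.9% of 32851 RefSeq promoters of this length. The E-box was found in 1 window, that of Crls1, and in 6.02% of all promoters. The TATA letters were in none of the 10 and in 12.4% of all promoters. The G and C content ran from 54.8% (Lpin1) to 83.2% (Lpin2), with a median over all promoters of 52.4%. The RefSeq start equalled the start in the deposited table for 8 of the 10 genes. For Gpam it was 30 bases away, and for Lpin1 21196 bases away, so its window belongs to another start of that gene. These matches describe letters and were not tested for binding.

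**Figure D1:**
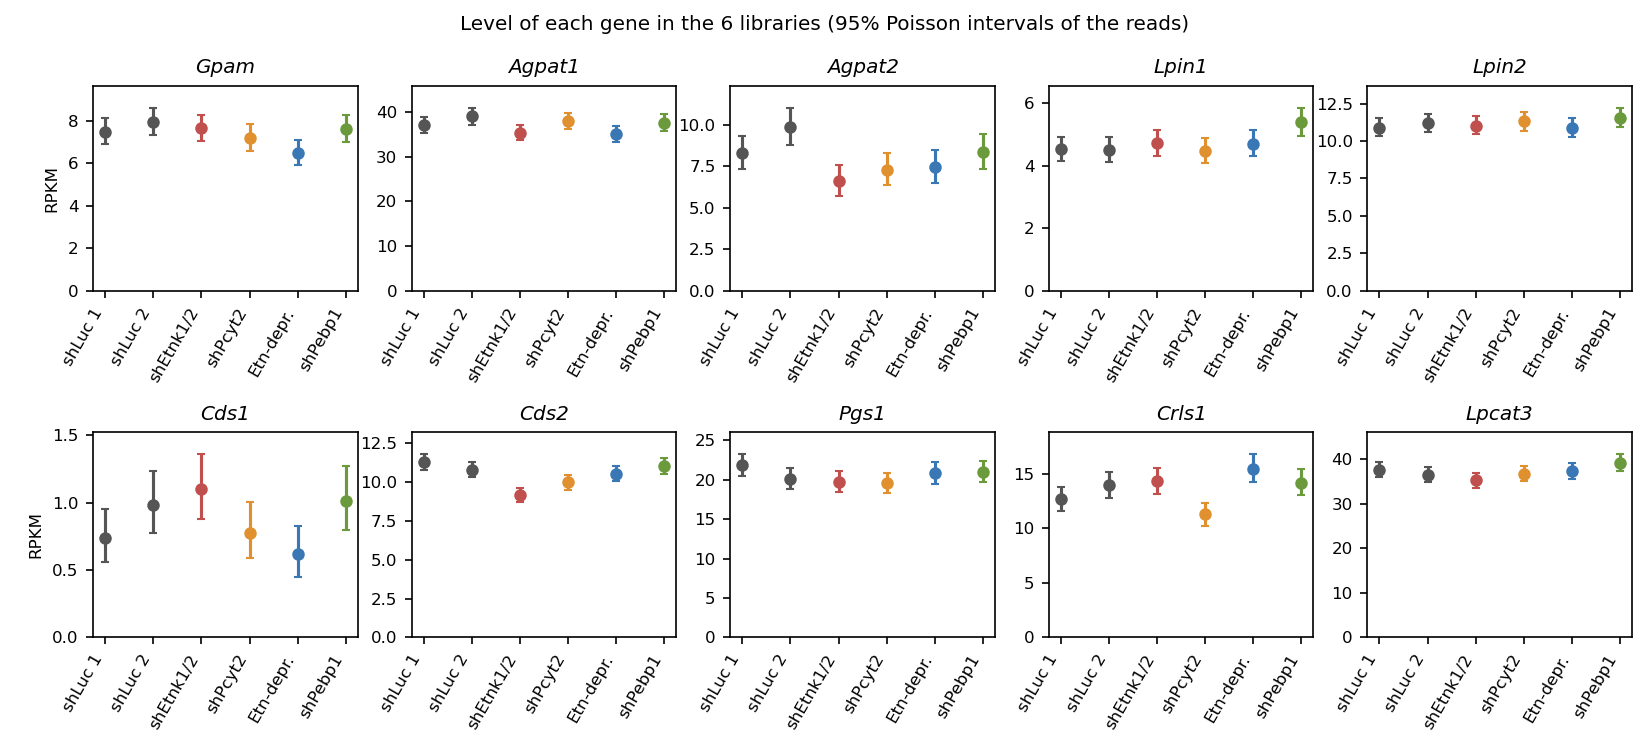
Level of each of the 10 genes in each library, in RPKM on linear axes that start at 0. Points are single libraries and bars are 95% Poisson intervals of the recovered reads, which cover counting error only. Lpin2 sits between 10.9 and 11.6 RPKM in every library, while Agpat2 is highest in the library labelled shLuc replicate 2 and lowest in shEtnk1/2.

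The 9 tested genes varied little between libraries. The range over the 6 libraries, in log2(RPKM + 1), had a median of 0.22 for these genes and of 0.30 for all genes tested. Lpin2 had a range of 0.08, smaller than in all but 0.67% of the genes tested. The widest was Agpat2 at 0.51, wider than in 85.6% of them, followed by Crls1 at 0.43. Agpat2 was 1.49 times as high in its highest library as in its lowest. The shLuc libraries themselves differed by a median of 0.07 in absolute value over the 9 genes (0.09 over all genes), from Pgs1, lower in replicate 2 by 0.11, to Agpat2, higher by 0.22.

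None of the 9 genes passed the test in any of the 8 comparisons (limma, Benjamini-Hochberg adjusted p under 0.05 over all genes). The lowest adjusted p was 0.0863, for Crls1 between shPcyt2 and Etn-deprived. Of all genes tested, 3.46% passed in shEtnk1/2 against shLuc (413 genes) and 3.8% in Etn-deprived (454), but 0.109% in shPcyt2 (13) and 0.101% in shPebp1 (12). A count of 0 of 9 is near these shares. The test also missed the targeted gene Pcyt2 in its own library, which limma-voom called. It missed Pebp1 in shPebp1 too, which limma-voom called. There shPebp1 (99.6 RPKM) was level with the library labelled shLuc replicate 2 (100.7), so Pebp1 does not show which tool is the more sensitive. At an unadjusted p under 0.05, limma gave 2 of the 9 genes for shEtnk1/2 (Agpat2 and Cds2) and 0 for each of the other 3 treated libraries, and limma-voom on recovered reads gave the same numbers and called 0. Over all genes 19.1%, 5.97%, 19.9% and 5.85% had an unadjusted limma p under 0.05. Limma-voom called 786, 37, 700 and 13 of the 11939 genes for shEtnk1/2, shPcyt2, Etn-deprived and shPebp1. As the treated groups hold 1 library each, the spread came from the shLuc pair, and nothing in the labels says that this pair came from separate cultures. In bulk RNA, fewer cells of a type and less RNA per cell cannot be told apart.

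The first acylation step was read through Gpam (chr19:55069734-55099447, minus strand, mm10). Its level was 7.49 and 7.94 RPKM in shLuc replicates 1 and 2, 7.64 in shEtnk1/2, 7.19 in shPcyt2, 6.49 in Etn-deprived and 7.62 in shPebp1. Etn-deprived was the lowest library, below both controls, on 462 reads against 578 and 598. It stood at 84.1% of the shLuc mean, a log2 difference of -0.22 (95% interval -0.48 to 0.04, limma adjusted p 0.335), which did not pass. Without the library labelled shLuc replicate 2 the difference was -0.18. The other treated libraries differed from shLuc by -0.09 to -0.01. Set against Gpat4, the endoplasmic reticulum enzyme of the same step (listed as Agpat6), Gpam was at 20.3% to 22.3% in the other 5 libraries and at 16.9% in Etn-deprived (95% exact binomial interval 15.3% to 18.7%).

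The second acylation is shared by Agpat1, the broadly expressed form, and Agpat2, the form whose loss causes congenital lipodystrophy. Agpat1 (chr17:34605861-34613449, plus strand) was at 37.0 and 39.0 RPKM in shLuc, 35.4 in shEtnk1/2, 37.9 in shPcyt2, 35.0 in Etn-deprived and 37.5 in shPebp1. These values lay within a factor of 1.11 of each other. The interval of each difference from shLuc fell within -0.29 and 0.18 on the log2 scale.

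Agpat2 (chr2:26593057-26604417, minus strand) was at 8.29 and 9.85 RPKM in shLuc, 6.59 in shEtnk1/2, 7.28 in shPcyt2, 7.45 in Etn-deprived and 8.36 in shPebp1. All 3 libraries of pathway inhibition lay below both shLuc libraries, and shPebp1 lay between the controls. The counts behind these levels were 263 and 305 reads in shLuc and 205, 222 and 218 in the 3 pathway libraries. shEtnk1/2 stood at 72.7% of the shLuc mean, a log2 difference of -0.40 (SE 0.13, 95% interval -0.69 to -0.12, limma adjusted p 0.126). That difference did not pass, and neither did -0.28 in shPcyt2 (adjusted p 0.855) or -0.25 in Etn-deprived (0.317). Without the library labelled shLuc replicate 2 the 3 differences were -0.29, -0.17 and -0.14, and without shLuc replicate 1 they were -0.51, -0.39 and -0.36. As a share of Agpat1 in the same library, Agpat2 was 22.4% and 25.3% in shLuc and 18.6%, 19.2% and 21.3% in the 3 pathway libraries, and the 95% binomial interval of every treated library overlapped that of shLuc replicate 1. The library labelled shLuc replicate 2 (22.3% to 28.6%) lay clear of shEtnk1/2 (16.0% to 21.6%) and shPcyt2 (16.6% to 22.1%).

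Phosphatidic acid is turned to diacylglycerol by Lpin1, which is also a transcriptional coactivator, and by Lpin2. Lpin1 (chr12:16535669-16589770, minus strand) was at 4.52 and 4.50 RPKM in shLuc, 4.71 in shEtnk1/2, 4.48 in shPcyt2, 4.71 in Etn-deprived and 5.38 in shPebp1. The shPebp1 library was the highest, at 119% of the shLuc mean, a log2 difference of 0.21 (95% interval -0.09 to 0.51, limma adjusted p 0.92), which did not pass. Lpin2 (chr17:71183978-71249818, plus strand) was at 10.9 and 11.2 RPKM in shLuc, 11.03 in shEtnk1/2, 11.3 in shPcyt2, 10.9 in Etn-deprived and 11.6 in shPebp1. Its reads numbered 1189 to 1292, and its largest difference from shLuc was 0.06, in shPebp1. Lpin1 was 39.6% to 46.6% of Lpin2 in every library. Lpin3, the least abundant lipin here, was 8.41% of Lpin2 in Etn-deprived and 14.9% in shEtnk1/2, with shLuc at 11.2% and 10.96%.

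**Figure D2:**
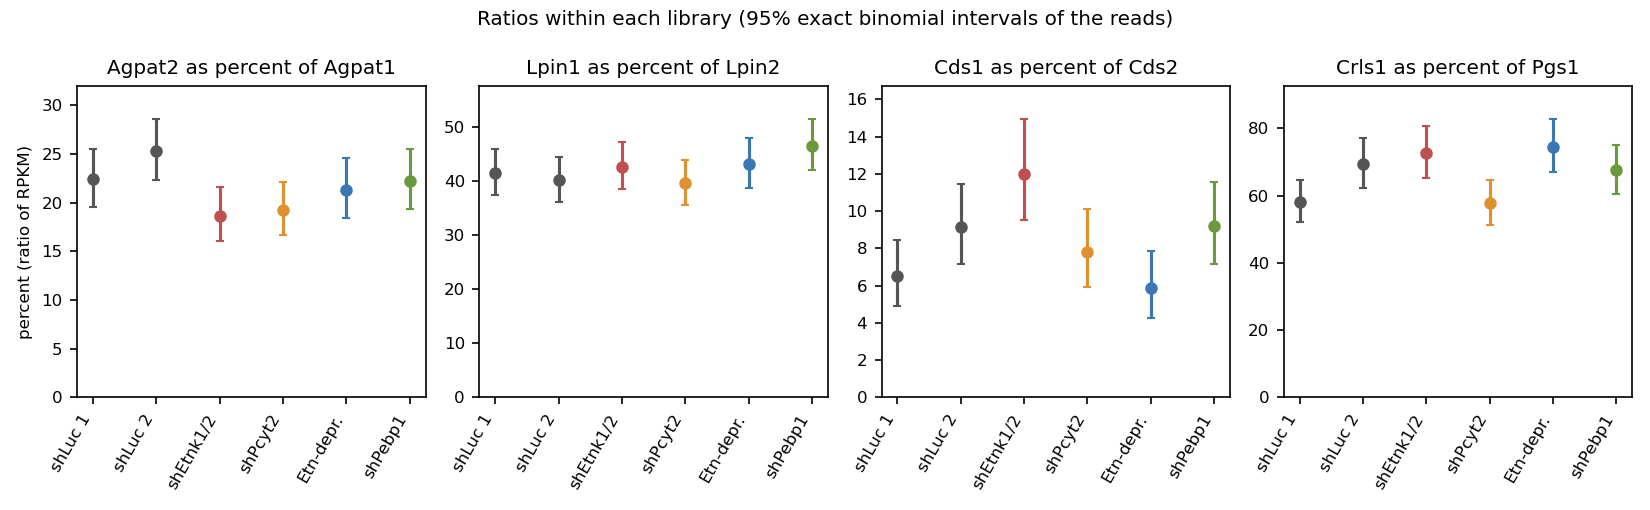
Level of one enzyme as a percentage of its partner in the same library, for 4 pairs, on linear axes that start at 0. Points are single libraries and bars are 95% exact binomial intervals of the reads. Cds1 stays at or under 12.0% of Cds2 in every library, and Crls1 lies between 57.7% and 74.4% of Pgs1.

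At the branch to CDP-diacylglycerol, Cds2 was the main form of the pair Cds1 and Cds2. Cds2 (chr2:132263148-132312050, plus strand) was at 11.3 and 10.8 RPKM in shLuc, 9.15 in shEtnk1/2, 9.98 in shPcyt2, 10.5 in Etn-deprived and 11.1 in shPebp1. The 3 pathway libraries were again below both controls, and shPebp1 was between them. shEtnk1/2, on 1624 reads, stood at 82.8% of the shLuc mean, a log2 difference of -0.25 (SE 0.11, 95% interval -0.48 to -0.01, limma adjusted p 0.237). It did not pass, also not with limma-voom on the recovered reads (adjusted p 0.0632, the lowest of any of these genes under any setting). Without the library labelled shLuc replicate 2 the difference was -0.28, and without shLuc replicate 1 it was -0.22. With median ratio scaling it was -0.19 and with a length trend removed -0.20. The median over all genes in this comparison was -0.06. The summed fibroblast markers, 12257 RPKM in shEtnk1/2 and 9654 and 9704 in shLuc, were highest in the library in which Agpat2 and Cds2 were lowest. The summed epithelial markers were lowest there, at 9.38 RPKM against 15.7 and 13.5 in shLuc. The fibroblast sum is mostly Col1a1, Col1a2, Col3a1 and Vim, with means of 2221 to 2798 RPKM. Thy1 had a mean of 61.9 and Pdgfra of 30.4. Most of the epithelial sum is Cdh1, at a mean of 9.44 RPKM. The sums therefore mainly follow these genes and do not measure how many cells of a type were present. The part of either sum in these differences was not tested.

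Cds1 (chr5:101765130-101823852, plus strand), which differs from Cds2 in the acyl chains it accepts, was at 0.734 and 0.986 RPKM in shLuc, 1.10 in shEtnk1/2, 0.777 in shPcyt2, 0.618 in Etn-deprived and 1.01 in shPebp1. These values rest on 45 to 85 reads. The 95% Poisson interval of Etn-deprived was 0.450 to 0.826 RPKM and that of shEtnk1/2 0.877 to 1.36, while those of the shLuc libraries (0.557 to 0.949 and 0.777 to 1.23) overlapped both. In a fit with no filter on low values the difference from shLuc was 0.18 in shEtnk1/2 and -0.20 in Etn-deprived (limma adjusted p 0.647 and 0.601). Cds1 was 5.86% of Cds2 in Etn-deprived (95% interval 4.26% to 7.88%) and 12.0% in shEtnk1/2 (9.54% to 14.9%), with shLuc at 6.51% and 9.13%.

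The mitochondrial steps to cardiolipin were read through Pgs1, which makes phosphatidylglycerol phosphate, and Crls1, the cardiolipin synthase. Pgs1 (chr11:117986857-118001715, plus strand) was at 21.8 and 20.1 RPKM in shLuc, 19.7 in shEtnk1/2, 19.6 in shPcyt2, 20.8 in Etn-deprived and 21.0 in shPebp1. All of its differences from shLuc were between -0.09 and 0.00 on the log2 scale, smaller than the 0.11 between the shLuc libraries.

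Crls1 (chr2:132846666-132866768, plus strand) was at 12.7 and 13.96 RPKM in shLuc, 14.3 in shEtnk1/2, 11.3 in shPcyt2, 15.5 in Etn-deprived and 14.2 in shPebp1. The shPcyt2 library was the lowest of the 6, below both controls, and Etn-deprived was the highest, on 449 and 592 reads. Against shLuc neither passed, with -0.22 for shPcyt2 (95% interval -0.45 to 0.01, limma adjusted p 0.859) and 0.21 for Etn-deprived (-0.02 to 0.44, adjusted p 0.301). Without the library labelled shLuc replicate 2 these were -0.15 and 0.27, and without shLuc replicate 1 they were -0.28 and 0.14. Set directly against Etn-deprived, shPcyt2 stood at 72.8%, a log2 difference of -0.43 (SE 0.12, 95% interval -0.69 to -0.16, limma adjusted p 0.0863), which also missed the threshold. In that comparison 3.22% of all genes passed. Crls1 was 58.0% and 69.3% of Pgs1 in shLuc, so that the controls alone spanned most of the range from 57.7% in shPcyt2 to 74.4% in Etn-deprived.

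Lpcat3 (chr6:124663104-124704716, plus strand) was at 37.6 and 36.5 RPKM in shLuc, 35.2 in shEtnk1/2, 36.7 in shPcyt2, 37.4 in Etn-deprived and 39.2 in shPebp1. shEtnk1/2 was the lowest and shPebp1 the highest, on 1742 and 1828 reads. The differences from shLuc ran from -0.07 to 0.08, with intervals between -0.25 and 0.26. Of its annotated exonic bases, 334 (10.2%) are shared with Emg1 on the other strand. Agpat1 shares 101 (3.37%) with Egfl8, Agpat2 64 (3.0%) with Egfl7 and Pgs1 93 (1.74%) with Dnah17, each on the other strand. Whether the counting used strand is not given in the sources used here, so reads in those stretches cannot be assigned to 1 of the genes.

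**Figure D3:**
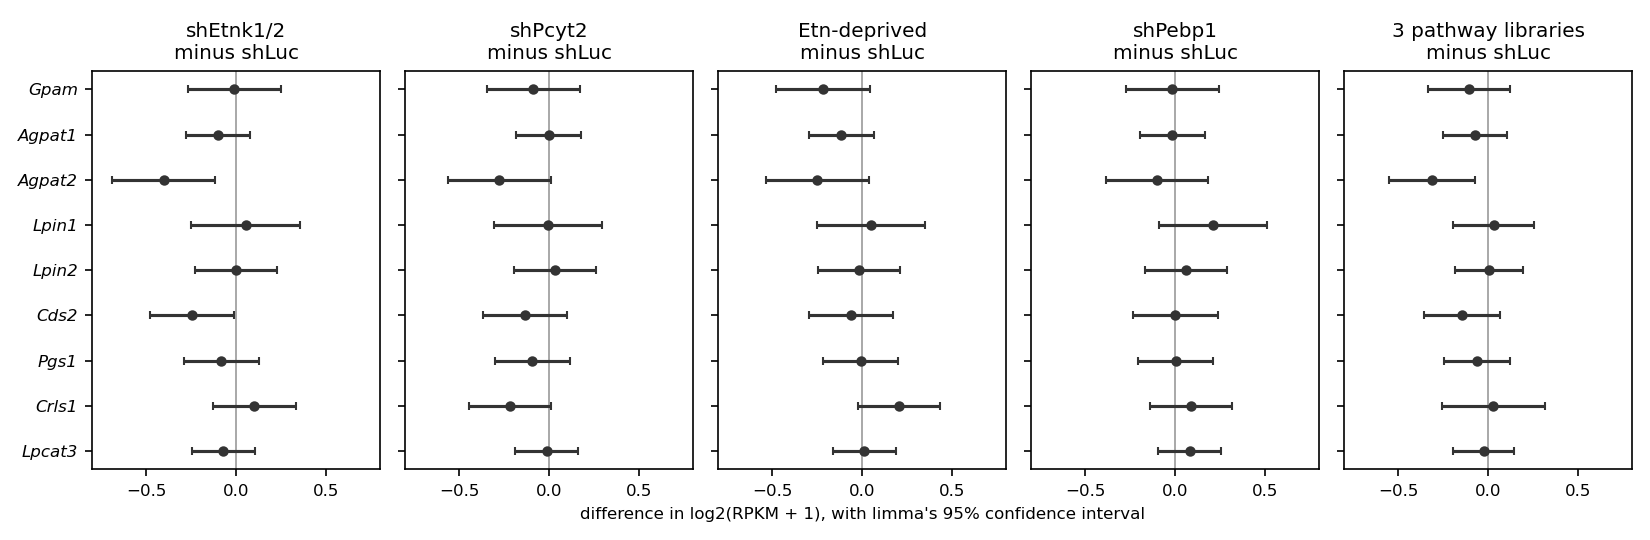
Difference of each of the 9 tested genes from shLuc in log2(RPKM + 1), for each treated library and for the 3 pathway libraries as 1 group. Points are limma estimates and bars their 95% confidence intervals, unadjusted for the number of genes. The intervals of Agpat2 in shEtnk1/2 and in the pathway group and of Cds2 in shEtnk1/2 lie below 0, and none of the 9 genes has an adjusted p under 0.05.

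Over the 9 genes, the median log2 difference from shLuc was -0.07 in shEtnk1/2 (-0.06 over all genes), -0.09 in shPcyt2 (-0.02), -0.02 in Etn-deprived (-0.01) and 0.00 in shPebp1 (0.01). In these comparisons 7, 8, 6 and 3 of the 9 genes were lower than shLuc, where 64.3%, 55.5%, 53.1% and 46.9% of all genes were. Over the 9 genes the single intervals, unadjusted for their number and resting on the shLuc pair, reached from -0.69 to 0.35 in shEtnk1/2, -0.56 to 0.29 in shPcyt2, -0.53 to 0.44 in Etn-deprived and -0.39 to 0.51 in shPebp1.

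The 3 pathway libraries were also compared as 1 group with the shLuc pair. Agpat2 and Cds2 were the 2 of 9 genes with all 3 pathway libraries below both controls, an arrangement that 15.9% of all genes showed. None of the 9 had all 3 above, which 7.82% of all genes showed. Agpat2 averaged 7.11 RPKM against 9.07, a log2 difference of -0.31 (SE 0.11, 95% interval -0.55 to -0.07, limma adjusted p 0.812). Its exact permutation p was 0.1, the smallest that 3 against 2 libraries allow. Without the library labelled shLuc replicate 2 the difference was -0.20, and without shLuc replicate 1 it was -0.42. Cds2 differed by -0.15 (95% interval -0.36 to 0.06, limma adjusted p 0.818, exact permutation p 0.2). The share of all genes that passed was 0%, by limma and by limma-voom alike, and 724 genes (6.06%) had an unadjusted limma p under 0.05, Agpat2 among them.

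Between the ways of inhibiting the pathway, 0 of the 9 genes passed in any pair, by limma or limma-voom. By limma all genes passed at 0.854% for shEtnk1/2 against Etn-deprived, 0.921% for shEtnk1/2 against shPcyt2 and, as above, at 3.22% for shPcyt2 against Etn-deprived. Limma-voom called 361, 254 and 741 of the 11939 genes in these pairs. At an unadjusted p under 0.05 limma gave 0, 1 and 1 of the 9 genes, both times Crls1, where 14.4%, 12.9% and 19.4% of all genes had one. Crls1 in shEtnk1/2 was 127% of its level in shPcyt2, a log2 difference of 0.32 (95% interval 0.06 to 0.59, limma adjusted p 0.281). Gpam in shEtnk1/2 was 118% of Etn-deprived, a difference of 0.21 (-0.09 to 0.51, adjusted p 0.527). Agpat2 differed between shEtnk1/2 and shPcyt2 by -0.13 (-0.46 to 0.21) and between shPcyt2 and Etn-deprived by -0.03 (-0.36 to 0.30). These comparisons and those with shLuc share libraries.

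**Figure D4:**
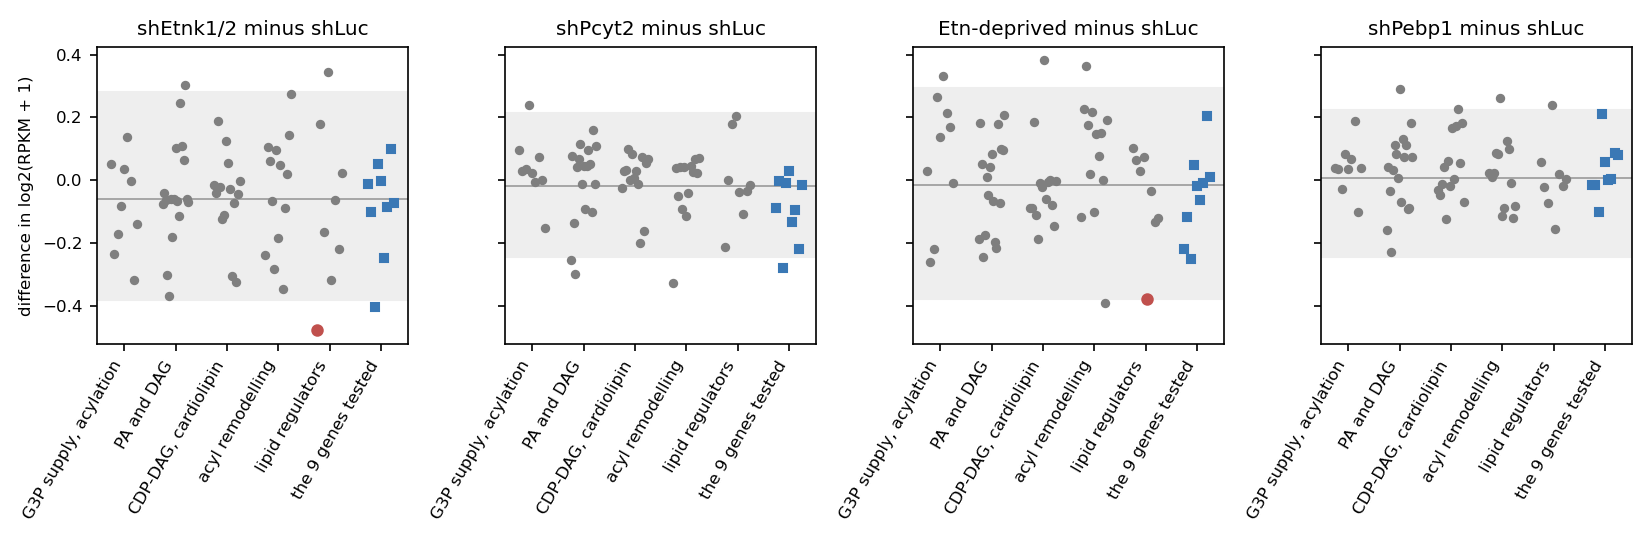
Difference from shLuc in log2(RPKM + 1) for the tested genes of 5 lists of neighbouring functions (circles) and for the 9 genes described above (squares), in each treated library. The grey line is the median and the grey band the 5th to 95th percentile over all genes tested, and red marks the genes that limma called, Abca1 in shEtnk1/2 and Nr1h2 in Etn-deprived.

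The genes around this route, 78 in 5 lists of which 77 were in the table and 61 were tested, are described by counts. These lists too were chosen with earlier results of these data known. By limma 1 of the 61 fell in shEtnk1/2 and 1 in Etn-deprived, where 3.46% and 3.8% of all genes passed, and none rose in either. At an unadjusted p under 0.05 there were 14 and 10 of the 61, beside 19.1% and 19.9% of all genes. In shPcyt2 and shPebp1 limma and limma-voom called 0, where limma passed 0.109% and 0.101% of all genes and limma-voom 37 and 13 of the 11939. By limma 3 and 1 had an unadjusted p under 0.05, beside 5.97% and 5.85% of all genes. In the pathway group the count was also 0 by both, as it was over all genes. There limma gave 2 at an unadjusted p under 0.05, beside 6.06% of all genes. The 2 calls were both in the list of lipid regulators. Abca1, the cholesterol efflux transporter, fell from 14.3 and 15.0 RPKM in shLuc to 10.2 in shEtnk1/2, a log2 difference of -0.48 (SE 0.10, limma adjusted p 0.0317). Nr1h2, the oxysterol receptor LXR beta and a regulator of Abca1 and Lpcat3, fell from 36.1 and 35.5 RPKM to 27.3 in Etn-deprived, a difference of -0.38 (SE 0.08, adjusted p 0.0318). In Etn-deprived Lpcat3 differed from shLuc by 0.01, and neither limma nor limma-voom called Abca1. A link between these genes was not tested. Each call held under 2 of 7 alternatives, a pseudocount of 0.1 and limma-voom (limma-voom adjusted p 1.02e-06 for Abca1 and 0.0136 for Nr1h2). Neither held with median ratio scaling or with a length trend removed. With no filter on low values limma called 0 genes of the whole table in either comparison, so that setting could not keep them. Neither was called when either shLuc library was left out, when the spread rests on the remaining pathway libraries, with differences of -0.51 and -0.44 for Abca1 and of -0.37 and -0.39 for Nr1h2. Limma-voom called 2 of the 61 in shEtnk1/2, Abca1 and Nr1h2 (adjusted p 0.0389), and 4 in Etn-deprived, Nr1h2, Pnpla8, Acsl4 (0.0101) and Agps (0.00628), where it called 786 and 700 of the 11939 genes. Between the 3 pathway libraries limma called 0 of the 61 in each pair, with 10 (shEtnk1/2 against Etn-deprived), 5 (shEtnk1/2 against shPcyt2) and 10 (shPcyt2 against Etn-deprived) at an unadjusted p under 0.05. Over all genes 14.4%, 12.9% and 19.4% had one. The counts of the 61 by limma-voom were 3, 0 and 4, where it called 361, 254 and 741 of the 11939 genes.

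In the list of CDP-diacylglycerol and cardiolipin genes limma called 0 of 14 in shEtnk1/2 or in Etn-deprived. In shEtnk1/2 11 of the 14 were lower, with a median of -0.03, where 64.3% of all genes were lower, with a median of -0.06. The largest differences were those of Tamm41, the mitochondrial CDP-diacylglycerol synthase, at -0.32 (adjusted p 0.145), and Ptpmt1, the phosphatase between Pgs1 and Crls1, at -0.30 (0.158). Tamm41 was at 15.4 and 13.5 RPKM in shLuc and 11.3 in shEtnk1/2, and Ptpmt1 at 9.54 and 9.58 in shLuc and 7.55. Both were thus below the 2 controls in that library. In Etn-deprived 11 of the 14 were lower, with a median of -0.04, where 53.1% of all genes were lower, with a median of -0.01. The largest differences there were nevertheless of 2 genes that were higher. Pnpla8, a calcium-independent phospholipase of mitochondria, was at 0.38 (16.0 RPKM against 12.1 and 12.0, limma adjusted p 0.0638). Lclat1, a lysocardiolipin acyltransferase, was at 0.19 (0.361). Limma-voom called Pnpla8 (adjusted p 0.00683) and no other gene of this list.

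In the list of glycerol-3-phosphate supply and acylation limma called 0 of 9 in these comparisons, and limma-voom Agps alone, in Etn-deprived. The largest differences were Gpd1l at -0.32 and Agpat3 at -0.24 in shEtnk1/2, and Agps, which makes ether lipids, at 0.33 and Agpat5 at 0.26 in Etn-deprived. Of the genes of phosphatidic acid and diacylglycerol both tools called 0 of 17, and limma gave an unadjusted p under 0.05 for 2 in shEtnk1/2 and 0 in Etn-deprived. Dgat2, a triacylglycerol synthase, at -0.37 and the phosphatase Plpp1 (listed as Ppap2a) at 0.30 differed most in shEtnk1/2. In Etn-deprived Dgat1 differed by -0.24 and Lpin3 by -0.22. Among acyl-chain remodelling genes limma called 0 of 13, and limma-voom Acsl4 alone, in Etn-deprived. Mboat1 at -0.34 and Lpcat1 at -0.28 differed most in shEtnk1/2, and Pla2g15, a lysosomal phospholipase, at -0.39 and Acsl4, which activates arachidonic acid, at 0.36 in Etn-deprived.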

How the data were processed

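The authors deposited 1 RPKM value per gene and library. The submitters' processing notes name Bowtie 0.12.2 and the build mm10. The sources used here do not give the counting program, gene models or strand setting. Whole reads were recovered for all 18303 genes (100% of them whole within 1e-05 reads plus a relative 5e-09). Their total per library is given as reads in genes. The library sizes used by limma-voom came instead from RPKM ratios between libraries and GENCODE transcript lengths, at 20164255 for shLuc replicate 1. The 11939 genes averaging 1 RPKM or more were tested on log2(RPKM + 1) with limma 3.58.1 in R 4.3.3. This scale understates the change of low genes. The fit had 5 group means with 1 residual degree of freedom from the shLuc pair, or 2 groups for the pathway comparison, with a trended, robust empirical Bayes step. Tests were two-sided, with Benjamini-Hochberg adjustment over all genes and a threshold of 0.05. The fit was tested on simulated data with known changes. Alternatives were a pseudocount of 0.1, no filter, median ratio scaling, limma-voom, removal of a length trend and leaving out libraries. Exon overlaps came from GENCODE M21. All 10 genes are named; of the 5 lists, those called, otherwise the 2 with the largest difference. The members and lists were chosen with earlier results of these data known.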

Additional observations from a re-analysis of the deposited data

How the results depend on the processing

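None of the 9 tested genes passed in any comparison under any of the alternatives run, where the lowest adjusted p was 0.0632, by limma-voom. Some alternatives could hardly have called them. With no filter limma called 0 of 18301 genes in each comparison except the pathway group, where it called 5. Fits without a shLuc library rest on 1 shLuc library, so not passing there says little. Of 477 differences recomputed, 36 changed sign, none of them larger than 0.10 on the log2 scale as reported. Shifts of the median log2 difference of the 9 genes are listed beyond a limit of 0.025. That limit was scaled down from the signed median difference of the shLuc pair (0.035), in which opposite signs cancel. It is therefore not a spread, and the median absolute difference of the pair was 0.073. The median of the 9 genes moved by more than the limit as follows. With median ratio scaling it was -0.0063 for shEtnk1/2, -0.029 for the pathway group, -0.027 for shEtnk1/2 against Etn-deprived and 0.0087 for shEtnk1/2 against shPcyt2. With the length trend removed it was -0.016 for shEtnk1/2, -0.058 for shPcyt2, -0.050 for Etn-deprived, -0.034 for the pathway group, -0.045 for shEtnk1/2 against Etn-deprived and 0.026 for shPcyt2 against Etn-deprived. Without shLuc replicate 1 or the library labelled shLuc replicate 2 in turn it was -0.040 and -0.052 for shPcyt2. It was -0.034 and -0.066 for Etn-deprived and 0.030 and 0.022 for shPebp1. Of these, -0.034 and 0.022 lay within that limit of the reported medians. In these fits the spread came from the other pathway libraries taken as 1 group, and the lone shLuc library was assumed to vary as they do. For the pathway group, leaving out 1 of the 5 libraries in turn gave medians from -0.052 (without shEtnk1/2) to -0.035 (without shLuc replicate 1). The cause of these shifts was not tested. Counts of called genes over the whole table ranged over settings from 0 to 786 for shEtnk1/2, 0 to 37 for shPcyt2, 0 to 700 for Etn-deprived, 0 to 16 for shPebp1, 0 to 8 for the pathway group, 0 to 361 for shEtnk1/2 against Etn-deprived, 0 to 254 for shEtnk1/2 against shPcyt2 and 0 to 741 for shPcyt2 against Etn-deprived. No paired analysis was possible because the treated groups hold 1 library each and share only 1 replicate number with shLuc. Comparisons between treated libraries were not refitted without a shLuc library. Cds1, with 45 to 85 reads, is the gene that depth limits most.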
